A study of Mus musculus with 51 samples.

Results

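The 5-hydroxymethylcytosine (5hmC) landscape of mouse femurs was compared between continued vitamin C (VitC) supply and VitC withdrawal, across gene bodies, intergenic space, chromosomes and gene classes other than the bone-selective genes. The comparison rests on 6 of the 51 samples of the series, chosen by their labels: 3 VitC+ and 3 VitC+/- hMeDIP-seq libraries, in which sonicated DNA was precipitated with an antibody against 5hmC and sequenced. All 6 mice were homozygous for the Gulotm1Mae knockout on the C57BL/6 strain and were 20 weeks old. Gulo encodes the last enzyme of VitC synthesis, so these mice take all their VitC from the drinking water, which held 3.3 g/L. VitC+ mice received it for 20 weeks and VitC+/- mice for the first 15 weeks only, on a chow without VitC. The knockout was therefore carried by both groups, and neither is a wild type. The DNA came from decalcified femurs, a tissue that holds osteocytes, osteoblasts and whatever marrow, vessel and fat cells remain. In such bulk samples, fewer cells of a type and less signal per cell cannot be told apart.

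The authors pooled the 3 libraries of a group before calling peaks, so each group had 1 list. The VitC+ list held 371568 peaks and the VitC+/- list 399599, on the 19 autosomes and on no other chromosome. No replicate values per peak were available for 5hmC, so every 5hmC difference below is a difference between 2 pooled lists without a test, and the spread between mice behind it is unknown. Confidence intervals are 95% Wilson intervals and cover counting error only, since neighbouring peaks are not independent. The depth behind the lists is unknown, as they hold no read counts.

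5hmC arises when TET dioxygenases oxidise 5-methylcytosine, which in mammalian DNA sits mostly at CpG dinucleotides. TET enzymes need ferrous iron and 2-oxoglutarate, and VitC keeps their iron reduced. In most tissues 5hmC lies over the bodies of transcribed genes and around active enhancers, while the CpG islands at the start sites of active genes carry little of it.

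For orientation, 5 stretches of 200 bp around the summit of a peak are shown in the mm10 build, plus strand, with every CpG in capitals. They are the peaks of highest fold enrichment of their kind, among peaks with at most 50% of their bases in repeats. Peaks found in both lists and in the VitC+ list only are shown for gene bodies and for distal intergenic space. The peak found in the VitC+/- list only is shown for distal space. Distal intergenic space lies more than 3 kb from any coding gene, long non-coding gene or unconfirmed transcript of the annotation. Pseudogenes, immunoglobulin and T cell receptor segments and small RNA genes were not counted as genes for this.
Ghrhr intron, both lists (chr6:55385891-55386090): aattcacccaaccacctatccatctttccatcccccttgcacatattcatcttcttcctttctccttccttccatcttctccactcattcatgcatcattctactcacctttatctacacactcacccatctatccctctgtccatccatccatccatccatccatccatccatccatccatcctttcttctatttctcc
Mapkapk2 intron, VitC+ only (chr1:131076510-131076709): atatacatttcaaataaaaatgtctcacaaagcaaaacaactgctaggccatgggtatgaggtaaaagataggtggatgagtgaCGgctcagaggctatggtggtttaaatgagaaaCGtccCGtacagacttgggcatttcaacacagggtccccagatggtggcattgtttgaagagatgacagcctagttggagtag
distal from Adamts20, both lists (chr15:94085347-94085546): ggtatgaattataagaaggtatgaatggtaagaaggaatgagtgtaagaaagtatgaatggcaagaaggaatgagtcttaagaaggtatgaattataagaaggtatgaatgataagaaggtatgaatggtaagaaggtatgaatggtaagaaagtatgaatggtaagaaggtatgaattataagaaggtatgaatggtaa
distal from Dok5, VitC+ only (chr2:171378416-171378615): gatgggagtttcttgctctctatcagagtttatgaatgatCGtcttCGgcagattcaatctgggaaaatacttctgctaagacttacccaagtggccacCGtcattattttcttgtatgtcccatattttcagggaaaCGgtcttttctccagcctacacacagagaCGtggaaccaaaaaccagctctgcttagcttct
distal from Stmn4, VitC+/- only (chr14:66366738-66366937): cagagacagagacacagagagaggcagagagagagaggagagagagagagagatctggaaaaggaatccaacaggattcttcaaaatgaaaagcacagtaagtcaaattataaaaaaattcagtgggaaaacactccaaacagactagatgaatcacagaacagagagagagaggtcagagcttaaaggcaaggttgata
The peak in an intron of Ghrhr, the receptor of growth hormone-releasing hormone, spanned chr6:55385529-55386625 with a fold enrichment of 29.0 in VitC+ and 37.6 in VitC+/-. The shared distal peak lay at chr15:94085001-94085784, 184716 bp from Adamts20, with a fold of 31.5 in VitC+. Both of these strongest shared stretches had 0 CpG. Mapkapk2, a stress kinase, held the strongest gene-body peak of the VitC+ list that no VitC+/- peak overlapped (chr1:131076030-131076785, fold 11.4), and its stretch had 3 CpG. The distal peak found in VitC+ only lay at chr2:171377054-171379078, 498747 bp from Dok5, with a fold of 10.7 and 5 CpG in the stretch shown. The stretch found in VitC+/- only, 5158 bp from Stmn4, had 0 CpG (chr14:66366601-66367564, fold 12.6). CpG content also set the whole lists apart and recurs in the results that follow.

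The total length of DNA covered by 5hmC peaks was almost equal in both lists. It came to 175 Mb in each, or 7.32% of autosomal bases in VitC+ and 7.30% in VitC+/-. What differed was where this length lay. The bodies of protein-coding genes held 98.2 Mb in VitC+ and 85.9 Mb in VitC+/-, a log2 ratio (VitC+/- over VitC+, as throughout) of -0.19. Distal intergenic space held 59.2 Mb and 71.4 Mb, a log2 ratio of 0.27. The 12.2 Mb by which gene bodies were lower was matched by 12.2 Mb more in distal intergenic space. By number of peaks, gene bodies went from 194256 to 187551 and distal space from 137215 to 170571.

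Within genes, the difference was largest in the coding sequence. Peaks covered 4.27% of coding bases in VitC+ and 2.95% in VitC+/- (log2 ratio -0.53). Introns of coding genes, which held most of the gene-body length, went from 10.4% to 9.11% (-0.18), untranslated regions from 7.11% to 5.88% (-0.27) and promoters within 1 kb of a start site from 5.38% to 4.59% (-0.23). Exons of non-coding genes went from 8.64% to 7.23% (-0.26), and the 3 kb flanks of genes from 6.67% to 6.19% (-0.11). Bodies of non-coding genes were nearly level, at 7.10% and 7.30% (0.04), and distal intergenic space alone was clearly higher, at 5.17% and 6.24%. Distal space therefore moved against all compartments of coding genes.

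**Figure D1:**
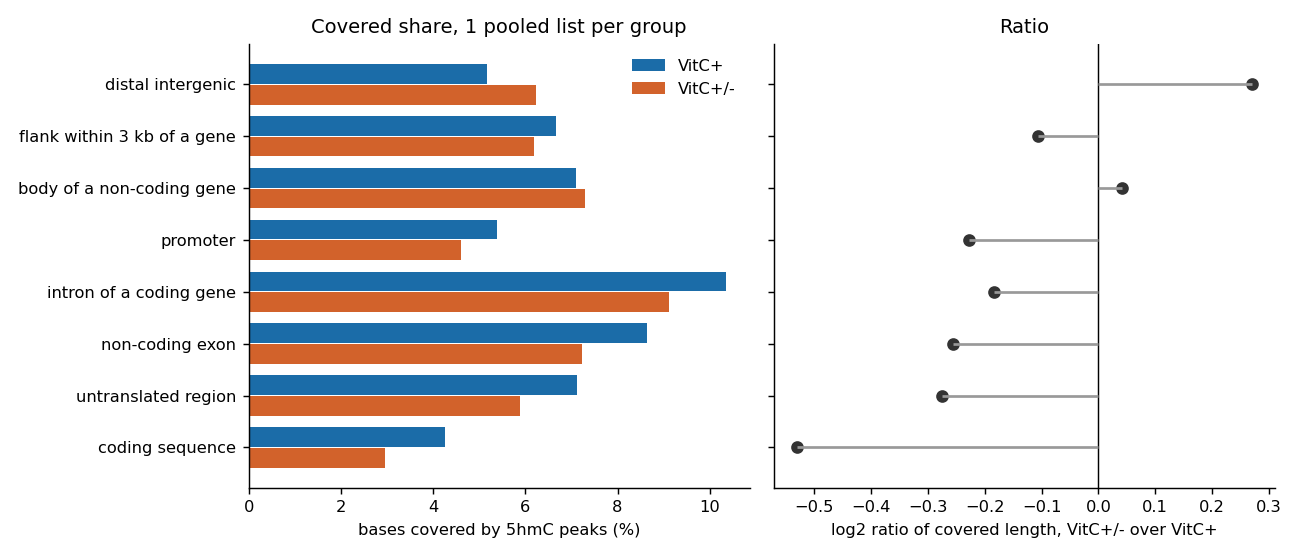
Percent of the bases of each genome compartment covered by 5hmC peaks (x axis) in the pooled VitC+ and VitC+/- femur lists, with 1 value per list and no error bar. Coding sequence shows the largest relative deficit in VitC+/- (4.27% against 2.95%) and distal intergenic space the only clear excess (5.17% against 6.24%).

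Femurs with Tet1 and Tet2 deleted in the Prrx1-Cre lineage, measured by the same assay, had no compartment with more covered length than their controls. Those mice, grown to 11 weeks on a standard diet, carried Prrx1-Cre, active in limb mesenchyme, alone (Ctrl) or with floxed Tet1 and Tet2 (Tet1/2 cKO), with 3 libraries pooled into 1 list per group. Tet3, and all TET genes of other cells of the femur, stay intact in this model. Tet1/2 cKO covered less than Ctrl in every compartment, with log2 ratios from -0.93 in promoters to -1.44 in untranslated regions and -1.36 in distal space. The covered total was 272 Mb in Ctrl and 122 Mb in Tet1/2 cKO, on the autosomes. Since the lists differ in mouse line, age and diet and have no replicates, the 2 contrasts are given side by side only.

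Peaks of the lists overlapped widely. Of the VitC+ peaks, 77.8% (interval 77.7 to 78.0%) overlapped a VitC+/- peak by at least 1 bp, and of the VitC+/- peaks 73.7% (73.5 to 73.8%) overlapped a VitC+ peak. In bases, 124 Mb were covered in both lists, 70.7% of the VitC+ length and 70.9% of the VitC+/- length. Overlap depended on the strength of a peak. Among the 2673 VitC+ peaks with a fold enrichment of 15 or more, all 2673 had a VitC+/- partner, and 3503 of 3504 in the other direction, whereas below a fold of 3 the shares were 62.0% and 40.4%. By width, 56.5% of VitC+ peaks under 300 bp were shared and 99.9% of those of 2 kb or more. Peaks found in 1 list only were thus mostly short and weak, with a median width of 282 bp in VitC+ and 284 bp in VitC+/- and a median fold of 3.57 and 3.33. A fold of 10 or more was reached by 9 peaks found in VitC+ only and 5 found in VitC+/- only.

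The peaks found in 1 list only differed in what DNA they marked. Peaks in VitC+ only had a median of 1.11 CpG per 100 bp and 41.2% GC, and on average 22.0% of their bases lay in repeats annotated in the genome. Peaks in VitC+/- only had 0.400 CpG per 100 bp, 36.3% GC and 49.2% in repeats. A peak without any CpG was rare among the former (3.39%) and common among the latter (26.5%). Introns of coding genes held 51.7% of the peaks found in VitC+ only and 31.7% of those found in VitC+/- only, and distal intergenic space 33.1% and 56.9%. Across the autosomes the genome has 0.851 CpG per 100 bp and 33.5% repeats, which lie between the 2 sets, and 41.9% GC, above both. The genome's CpG and GC values are means, while those of the sets are medians per peak.

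Other 5hmC lists of the series met these sets unequally. Of the peaks found in VitC+ only, 48.0% (47.7 to 48.4%) overlapped a peak of the Ctrl femurs, close to the 44.9% of VitC+ peaks found in both lists. Of the peaks found in VitC+/- only, 7.73% (7.57 to 7.89%) did. Overlap with the Tet1/2 cKO femurs was 24.2% and 2.99% in the same order. In MC3T3-E1 cells, a calvarial preosteoblast line kept in culture for 28 days, the list made with VitC overlapped 35.5% of the peaks in VitC+ only and 7.83% of those in VitC+/- only. The list made without VitC overlapped 18.99% and 18.28%, against 39.4% of the shared VitC+ peaks. Lists of unequal length give unequal overlaps, so the comparison is between the sets under 1 list, not between lists.

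Graded by CpG density, the peaks formed a steady series. Peaks with under 0.25 CpG per 100 bp made up 10.5% of the VitC+ list and 18.03% of the VitC+/- list, those with 0.25 to 0.5 made up 15.7% and 21.4%, those with 1 to 2 made up 35.1% and 25.7%, and those with 2 or more 4.71% and 3.02%. The share of VitC+ peaks that had a VitC+/- partner went from 92.3% in the CpG-poorest class over 84.0%, 81.1% and 70.8% to 53.1% in the CpG-richest class. In the other direction it went from 54.3% over 62.4%, 79.7% and 87.3% to 89.6%. CpG-dense peaks were the ones most often missing after withdrawal, and CpG-sparse peaks the ones most often added.

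**Figure D2:**
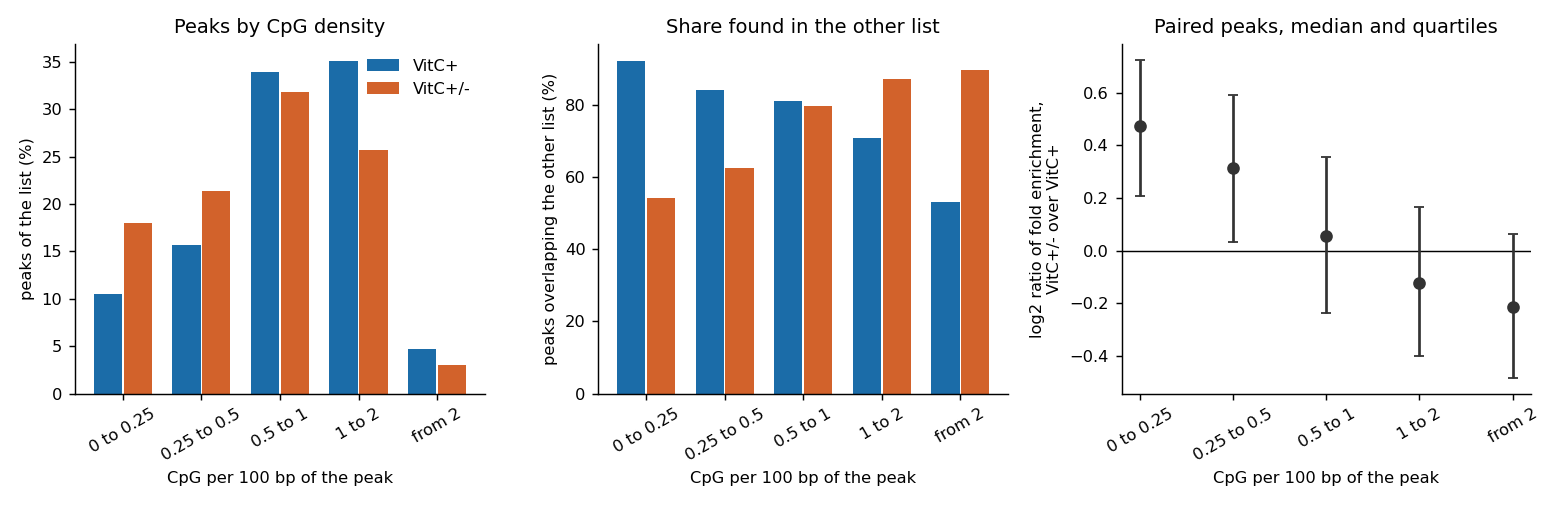
Peaks grouped by CpG per 100 bp (x axis), with the percent of each list in a group, the percent shared with the other list and the log2 ratio of fold enrichment in matched pairs on the y axes. The shared percent of VitC+ peaks goes down from 92.3% to 53.1% with CpG density, that of VitC+/- peaks goes up from 54.3% to 89.6%, and the paired fold ratio goes from 0.47 to -0.21.

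The same gradient ran through peaks that both lists held. In 277133 pairs, each made of 1 VitC+ and 1 VitC+/- peak that overlapped no other peak, fold enrichment had a median log2 ratio of 0.09, with quartiles of -0.24 and 0.42. The VitC+/- peak was stronger by at least 1.5-fold in 15.3% of pairs and weaker by that much in 7.55%. By CpG density the median log2 ratio went from 0.47 in the CpG-poorest class over 0.32, 0.06 and -0.12 to -0.21 in the CpG-richest. It was 0.21 in distal intergenic space, -0.15 in coding sequence and within 0.01 of 0 in introns of coding genes and in promoters. Fold enrichment is relative to the local background of each library pool, so these are ratios of ratios.

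Wide domains were fewer after withdrawal. Peaks of 2 kb or more numbered 1804 in VitC+ and 793 in VitC+/-, and peaks of 1 to 2 kb 19542 and 14221. Of the VitC+ length, 16.9% lay in peaks of 1 kb or more, against 11.4% in VitC+/-. Few wide VitC+ peaks lacked a VitC+/- partner, and only the widest were mostly split. Among 21346 VitC+ peaks of 1 kb or more, 276 met no VitC+/- peak, 15389 (72.1%) met 1 and 5681 (26.6%) met 2 or more. How often wide VitC+/- peaks met 2 or more VitC+ peaks was not counted, so splitting is not shown to be particular to withdrawal. Of the 1804 VitC+ peaks of 2 kb or more, 1 met no VitC+/- peak, 712 met 1 and 1091 (60.5%) met 2 or more, and 79.1% of their bases were covered in VitC+/-. The widest VitC+ peak spanned 7219 bp near Gm853 (chr4:130201897-130209115), of which 2 VitC+/- peaks covered 6633 bp. A peak of 6778 bp in Atp2b1, a plasma membrane calcium pump, met 3 VitC+/- peaks that covered 5934 bp. In Fign, a microtubule-severing ATPase, 5750 bp met 5 peaks that covered 4034 bp, and in Nfib, a transcription factor of lung and brain development, 5612 bp met 3 that covered 4540 bp. Some wide peaks kept their width. One in Dnah12, an axonemal dynein, had 6394 bp in VitC+ and 6337 bp in VitC+/-, with a fold of 10.3 and 12.9, and the peak near Josd2 had 5991 and 6005 bp with a fold of 16.1 and 26.0.

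Short tandem repeats were common under the peaks of both lists. A tract of at least 24 bp made of a unit of 1 to 6 bp lay in 21.7% of VitC+ peaks and 24.5% of VitC+/- peaks, against 8.85% of genome windows of 372 bp. The share was 33.6% and 39.8% among peaks with a fold of 15 or more. It was 11.0% of the peaks found in VitC+ only and 24.2% of those found in VitC+/- only. Peaks without any CpG made up 7.72% and 12.8% of the lists, and 13.4% of the genome windows. In the Ctrl and Tet1/2 cKO lists, 25.7% and 23.8% of peaks held such a tract. Whether the antibody takes up tandem repeats without 5hmC was not tested, and the results without these peaks are given with the alternatives.

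The chromosomes differed little. Covered length per chromosome was between 6.28% lower (chromosome 11) and 6.56% higher (chromosome 7) in VitC+/-. Chromosomes 11, 9 and 19 were lowest, with log2 ratios of -0.09, -0.08 and -0.08, and chromosomes 7, 12 and 4 highest, with 0.09, 0.08 and 0.07. Over the 19 chromosomes the log2 ratio went with CpG density (Spearman's rho = -0.65, Pearson's r = -0.61), less so with the number of coding genes per Mb (rho = -0.36). Chromosomes share libraries, so these values are descriptions, and chromosome 7, rich in genes and also in olfactory and vomeronasal receptor clusters, went against the second relation.

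Inside the chromosomes the contrast was stronger. In 2390 bins of 1 Mb, the log2 ratio ran from -0.75 to 2.01 around a median of 0.01. At least 1.5-fold less covered length in VitC+/- was found in 13 bins (0.544% of bins) and at least 1.5-fold more in 522 (21.8%). Under the alternatives tried these counts ran from 2 to 51 and from 452 to 625. The ratio followed CpG density (rho = -0.81, r = -0.74), GC content (rho = -0.75), repeats (rho = 0.72) and the share of coding gene bodies (rho = -0.52), and within each single chromosome rho with CpG density lay between -0.74 and -0.89. In the quintile of bins with the fewest CpG, peaks covered 3.58% of bases in VitC+ and 5.89% in VitC+/- (log2 ratio 0.72), and 372 of 478 bins were at least 1.5-fold higher. In the quintile with the most CpG, 7.53% and 6.01% were covered (-0.33), with 10 bins at least 1.5-fold lower and 1 higher. For Tet1/2 cKO against Ctrl, rho with CpG density over the same bins was -0.18, and the log2 ratio stayed between -1.33 and -1.06 in the 5 classes.

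**Figure D3:**
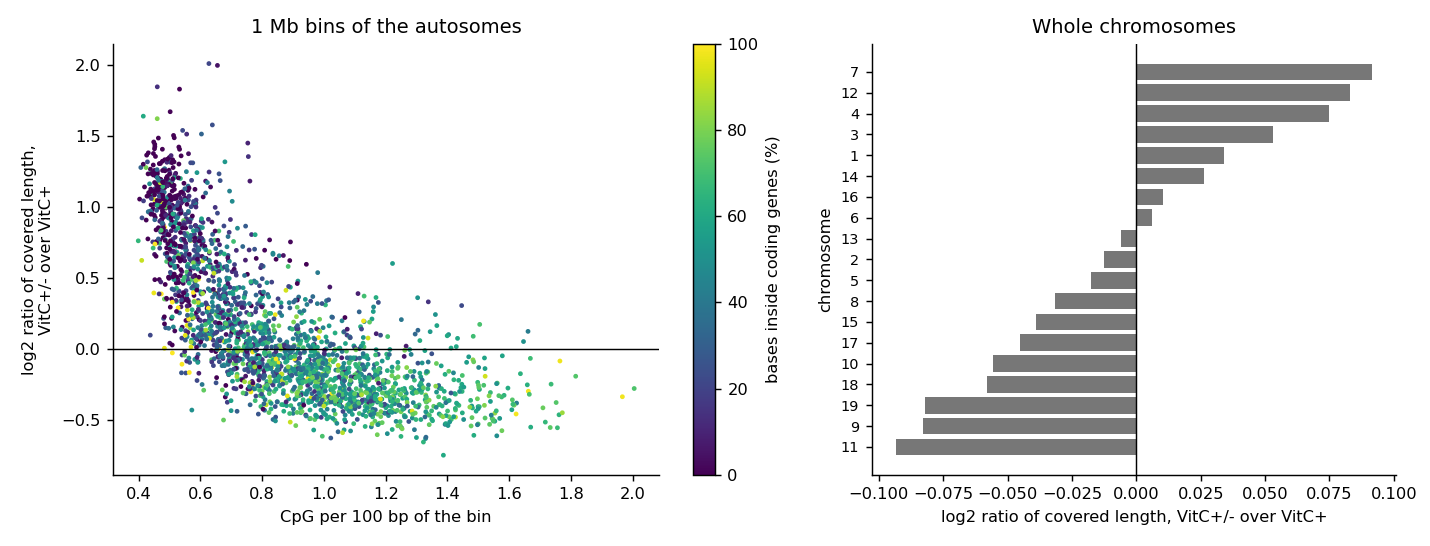
Log2 ratio of covered length, VitC+/- over VitC+, for 2390 bins of 1 Mb against their CpG per 100 bp and for the 19 autosomes. Bins run from 2.01 down to -0.75, with most of the positive values at low CpG density, and the chromosomes stay within 0.10 of 0.

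The bins at either end showed what kind of DNA was concerned. The lowest was chr11:88000001-89000000, with 100632 bp covered in VitC+ and 59607 bp in VitC+/- (log2 ratio -0.75). It holds 11 coding genes, among them the RNA-binding protein gene Msi2, the splicing factor gene Srsf1 and Akap1. Next came chr10:61000001-62000000, with 58278 and 36696 bp (-0.65) over Col13a1, Adamts14 and Sgpl1, and chr14:54000001-55000000, with 83705 and 53789 bp (-0.63) over the cardiac myosin genes Myh6 and Myh7, the amino acid transporter gene Slc7a8 and the matrix protease gene Mmp14. The highest bin among those covered by at least 20 kb was chr6:130000001-131000000, with 14261 bp in VitC+ and 53899 bp in VitC+/- (1.85). Its 8 coding genes, Klra1, Klra3, Klra4, Klra6, Klra7, Klra8, Klra9 and Klra10, encode lectin-like Ly49 receptors of natural killer cells. The next, chr3:91000001-92000000, had 13016 and 48856 bp (1.83) and 1 coding gene, 9130204L05Rik. After it, chr6:69000001-70000000 had 11153 and 37715 bp (1.67) and 0 coding genes. Immunoglobulin segments and pseudogenes were not counted as coding genes. In the Ctrl femurs the 3 highest bins had at most 836 bp covered, and the 3 lowest at least 229459 bp.

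Genes and distal space still differed at like CpG density. In 10 kb windows of the CpG-poorest quintile, windows inside coding genes had a log2 ratio of 0.46 and distal windows one of 0.85. Over the next classes the values were 0.05 and 0.42, -0.19 and 0.06, -0.35 and -0.15, and -0.44 and -0.23, with the gene windows first. In all 5 classes the gene windows were below the distal ones, and in both kinds of window the ratio went down with each class.

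Along the gene, the deficit was spread over the whole body. For 17011 coding genes of at least 5 kb, coverage was highest near the start of the body, where in the third of 30 equal parts it was 10.7% in VitC+ and 8.99% in VitC+/-, and it went down to 5.21% and 4.32% in the part before the last. The log2 ratio in the 30 parts stayed between -0.15 and -0.28, and that in the 20 kb on either side between -0.05 and -0.23. At CpG-rich start sites (10870 genes), 1.962% of the bases within 500 bp were covered in VitC+ and 1.55% in VitC+/-, and 2 to 3 kb downstream 15.4% and 12.1% (log2 ratio -0.35). At CpG-poor start sites (7060 genes), the stretch 2 to 3 kb upstream went from 4.28% to 5.32% (0.32) and the 500 bp on each side from 3.51% to 3.26% (-0.11). The dip at CpG-rich start sites was thus present in both groups, and the shoulder behind it was lower in VitC+/-.

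**Figure D4:**
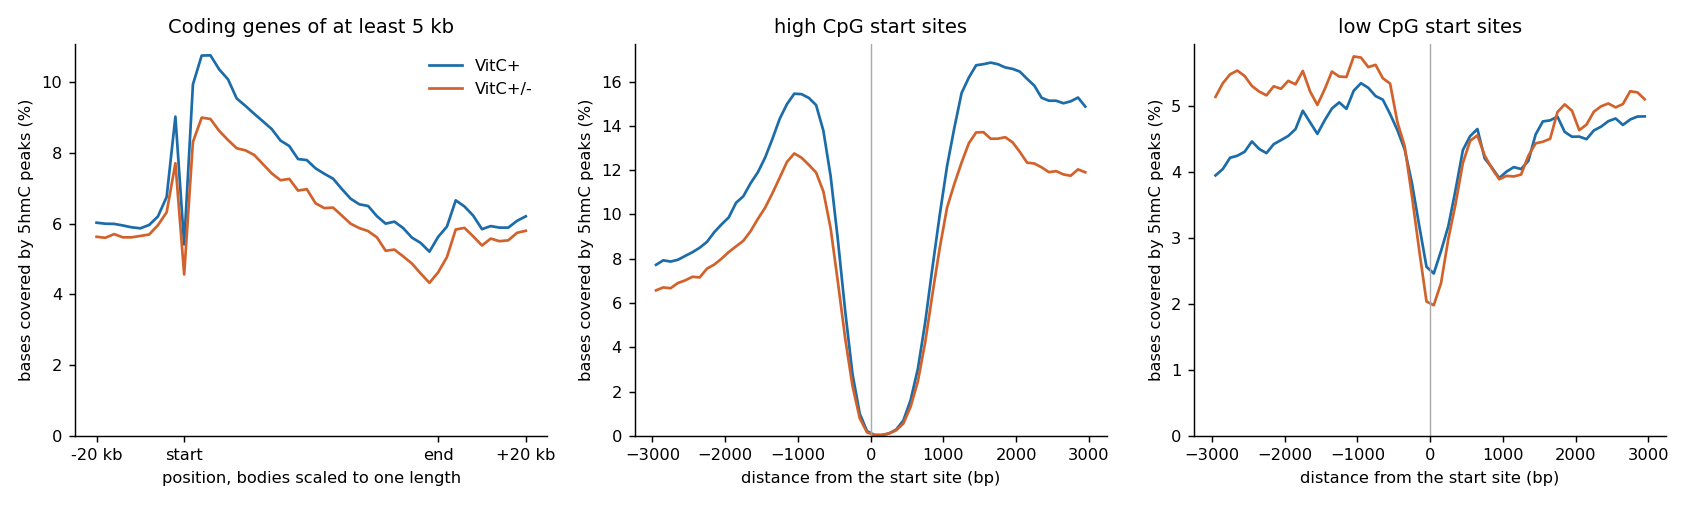
Percent of bases covered by 5hmC peaks (y axis) in the VitC+ and VitC+/- lists along coding genes, in equal parts of the body with 20 kb flanks, and by distance in bp from start sites of high and low CpG density. VitC+ lies above VitC+/- along the whole body (10.7% against 8.99% in the third part), while upstream of CpG-poor start sites VitC+/- lies above (5.32% against 4.28%).

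Single genes were compared by the covered length of their bodies, with 1000 bp added to both lengths before the ratio. Of 20779 autosomal coding genes, 5934 held no peak in either list. A body of at least 2 kb is found in 19384, of which 9025 had at least 1000 bp covered as the mean of both lists. In these 9025 genes the median log2 ratio was -0.17, and 6126 were below 0. The median was 0 by number of peaks and 0 over all 19384 genes, without the minimum on covered length. At least 1.5-fold lower were 838 genes (9.29%) and at least 1.5-fold higher 516 (5.72%). Long non-coding RNA genes had a median of -0.04, with 168 of 2821 lower and 285 higher by that fold, and pseudogenes one of 0.23, with 2 of 174 lower and 41 higher. Of 492 immunoglobulin and T cell receptor segments, 481 held no peak, but only 14 of the 492 had a body of at least 2 kb.

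CpG content ordered the coding genes as it ordered the bins. In the decile with the fewest CpG, the median log2 ratio was 0.42, with 325 of 903 genes at least 1.5-fold higher and 6 lower. It passed through 0.06, -0.06 and -0.15 in the next deciles and came to -0.31 in the decile with the most CpG, with 2 genes higher and 156 lower. Expression ordered them too. RNA-seq of femurs from the same 2 groups, with 3 libraries each and 3 of WT mice, gave each gene a level as RPKM, which is per gene length and library depth and was scaled between libraries. The methods of the study state that femurs for RNA were flushed and minced. For the decalcified femurs used for 5hmC no flushing is stated. Genes at or below 0.1 RPKM in VitC+ femurs had a median of 0.18, and those above 20 RPKM one of -0.26. In VitC+, coverage of gene bodies went from 3.85% in the first of these classes to 15.09% in the second, and in VitC+/- from 4.77% to 11.9%. The span between silent and highly expressed genes was thus narrower after withdrawal. Within the 3 CpG-poorest deciles, genes up to 1 RPKM had a median of 0.30 and genes above 5 RPKM one of -0.07, and in the 3 CpG-richest deciles the medians were -0.20 and -0.32. Genes of 300 kb or more, which are CpG-poor, had a median of 0.01, with 105 of 540 genes higher and 29 lower.

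The 10 coding genes with the lowest ratios, outside the bone-selective list and with at least 5 kb covered in the higher list, had varied roles. Car12, a carbonic anhydrase of the cell surface (chr9:66713686-66766845), had 8218 bp covered in VitC+ and 2805 bp in VitC+/- (log2 ratio -1.28). Sspn, a sarcospan of the dystrophin complex (chr6:145931641-145965223), had 7288 and 2486 bp (-1.25). Smad6, the inhibitor of BMP signalling (chr9:63953076-64022059), had 5647 and 1871 bp (-1.21). The genes were picked for low ratios, so a VitC+/- length far under the VitC+ length follows from the rule. Vdr, the receptor of active vitamin D (chr15:97854425-97910630), had 8278 and 3021 bp (-1.21). Daam2, a formin of Wnt signalling (chr17:49456022-49564343), had 15264 and 6138 bp (-1.19). Vldlr, a lipoprotein and reelin receptor (chr19:27216484-27254231), had 12942 and 5520 bp (-1.10). The others were Dido1 (5255 and 1712 bp, -1.21), Ago2, the slicing Argonaute protein (8278 and 3103 bp, -1.18), Uox, annotated as urate oxidase (8229 and 3109 bp, -1.17), and Galnt10, which starts mucin-type glycans (6627 and 2446 bp, -1.15). Apart from Daam2 and Vldlr, these genes reached the 5 kb minimum through the VitC+ list alone. All 10 were well covered in the Ctrl femurs, with 11691 to 99377 bp.

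Of the 10 genes with the highest ratios, Gucy1a2, a subunit of the nitric oxide receptor (chr9:3532778-3894736), had 6258 bp in VitC+ and 23176 bp in VitC+/- (1.74). Skint5 and Skint6, of a family expressed in skin and thymus epithelium, had 8767 and 28975 bp (1.62) and 6939 and 22028 bp (1.54). Trdn, the triadin of the muscle calcium store, had 5745 and 17407 bp (1.45). Picked for high ratios, these genes have a much longer VitC+/- length by the rule itself. The others were Naalad2 (1053 and 5624 bp, 1.69), Slco6d1 (1472 and 6715 bp, 1.64), Nxph2, a ligand of neurexins (1327 and 6219 bp, 1.63), Dpy19l2 (2697 and 10311 bp, 1.61), Zpbp, a sperm protein that binds the zona pellucida (5006 and 15865 bp, 1.49), and Tc2n (1592 and 6133 bp, 1.46). Naalad2, Slco6d1, Nxph2, Dpy19l2 and Tc2n reached the 5 kb minimum through the VitC+/- list alone. All 10 lay in the CpG-poorest decile, while the 10 lowest lay in deciles 5 to 10. In the Ctrl and Tet1/2 cKO femurs they had between 0 and 447 bp covered. Their VitC+ RNA was at most 2.25 RPKM, and 4 of them (Slco6d1, Nxph2, Skint5 and Skint6) were listed at 0 in all VitC+ and VitC+/- libraries.

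The genes of the pathway itself were covered as follows. Gulo had 0 bp in both lists. Tet1 had 9890 bp in VitC+ and 5764 bp in VitC+/- (log2 ratio -0.69), Tet2 16221 and 13305 bp (-0.27) and Tet3 12936 and 7728 bp (-0.68). In RNA, Tet2 levels were 3.17, 4.70 and 3.69 RPKM in VitC+ and 8.81, 8.79 and 6.60 RPKM in VitC+/-. The groups did not overlap, and Tet2 RNA rose by a log2 fold change of 0.98 ± 0.20 (SE, limma, adjusted p = 0.0153). Its adjusted p was 0.0560, 0.0585 and 0.0659 without VitC+ replicate 1, VitC+ replicate 3 and VitC+/- replicate 1, so that call rests on each of these libraries. Tet3 RNA had a log2 fold change of 0.55 (adjusted p = 0.0671), and Tet1 lay below the filter on low RPKM. Of the 21 listed VitC-dependent dioxygenases that passed, which demethylate histones and nucleic acids or hydroxylate proline and lysine, 20 were below 0 and 4 at least 1.5-fold lower, beside 6126 of 9025 and 9.29% of all coding genes. Their median was -0.34, and -0.09 once the median of their CpG decile was subtracted. Fto, an RNA demethylase, had 102286 and 75649 bp (-0.43), Plod2, a collagen lysyl hydroxylase, 35258 and 27368 bp (-0.35), and Kdm4c, a histone demethylase, was the exception with 30878 and 36663 bp (0.24). All 8 genes of DNA methylation and its repair were below 0 (median -0.33), with the glycosylase gene Tdg lowest at 2644 and 1446 bp. Their median was -0.05 once the median of their CpG decile was subtracted.

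The other gene classes fell into a group above 0 and a larger group below it. Of 27 classes with at least 5 members that passed the coverage minimum, 20 had a median below 0, as had all coding genes (-0.17). Vomeronasal receptors, which sense pheromones, had the highest of these medians. Of 325 genes 133 held no peak and 50 passed, with 27 at least 1.5-fold higher, 0 lower and a median of 0.62, and their summed length went from 99.5 kb to 215 kb. Vmn2r27 had 393 and 3422 bp (1.67) and Vmn2r7 had 3924 and 9617 bp (1.11). Olfactory receptors had a median of 0.25 in the 45 of 1086 genes that passed, with 6 higher and 0 lower. Olfr56 had 17909 and 14368 bp over an annotated body of 156 kb that reads through other genes. Receptor genes could pass the minimum through the higher list alone, as Vmn2r27 did, and without it the medians were 0.11 for vomeronasal and 0 for olfactory receptors. Once the median of their CpG decile was subtracted, the medians became 0.20 for vomeronasal and -0.07 for olfactory receptors. Of these receptor genes, 4 olfactory and 1 vomeronasal had enough RNA to be tested.

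**Figure D5:**
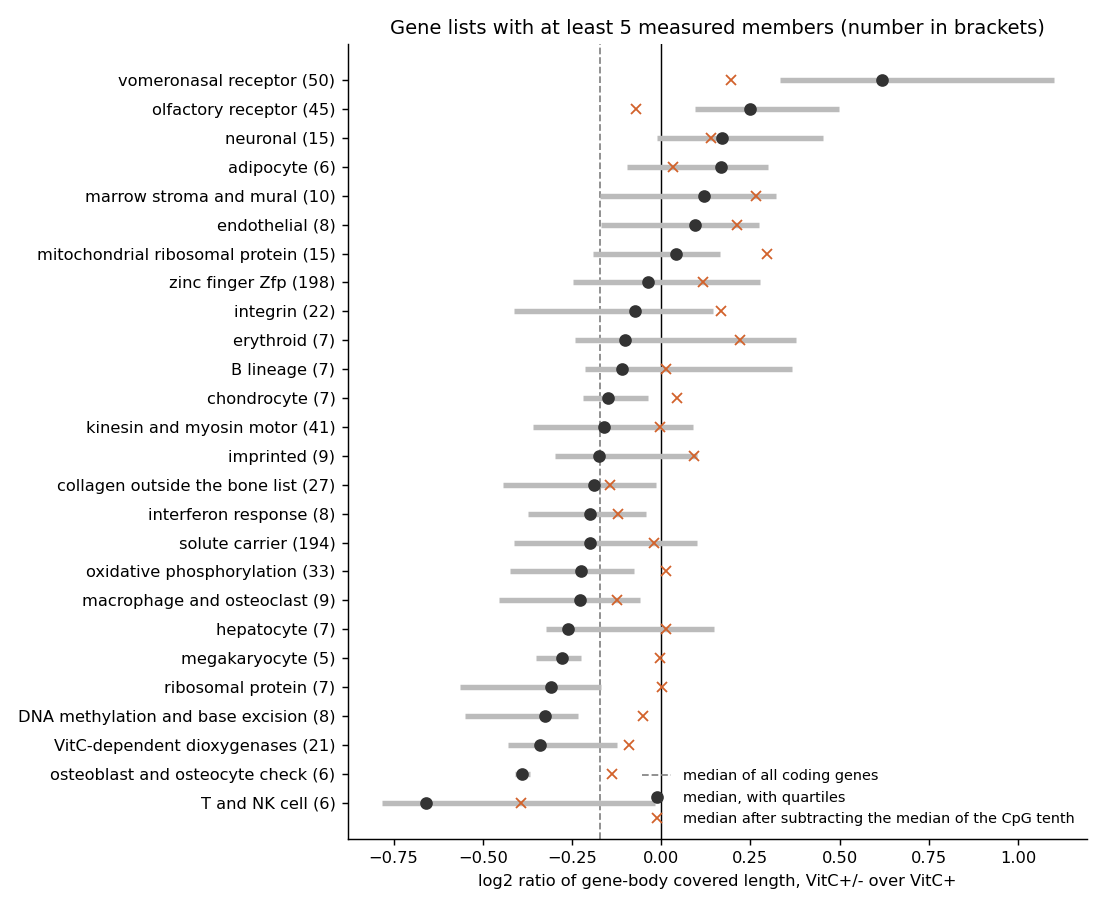
Median log2 ratio of gene-body covered length, VitC+/- over VitC+, for gene classes with at least 5 members that passed (x axis, classes on the y axis), with the values after subtraction of the CpG decile's median. Vomeronasal receptors lie highest (0.62, and 0.20 after subtraction) and most classes lie below 0 before it.

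Long neuronal genes were higher in sum, from 547 kb to 666 kb, with a median of 0.17 in 15 genes. Lrp1b, a large lipoprotein receptor, had 48513 and 93320 bp (0.93), Cntnap2, a neurexin family member, 79512 and 109480 bp (0.46) and Dlg2, a synaptic scaffold, 162053 and 166445 bp (0.04). Snap25, of the synaptic vesicle machinery, went the other way, with 5255 and 3135 bp (-0.60). In the zinc finger genes named Zfp, most of them transcriptional repressors, 198 passed, 9 lower and 20 higher, with a median of -0.04. Zfp385b had 96851 and 59376 bp (-0.70) and Zfp946 had 912 and 3765 bp (1.32). Imprinted genes had a median of -0.17, where Sgce had 19251 and 13512 bp (-0.48) and the readthrough model of Snrpn 1793 and 5424 bp (1.20). The 3 Hox genes that passed were all at least 1.5-fold lower, namely Hoxa3 (8172 and 4718 bp), Hoxc4 (4162 and 1950 bp) and Hoxc5 (5231 and 2971 bp), of which Hoxc5 overlaps its neighbours. Beside 9.29% of all coding genes, these are 3 of 39 Hox genes, of which 15 held no peak. Once the median of their CpG decile was subtracted, the 3 ratios were -0.37, -0.49 and -0.34, none of them 1.5-fold, and without the minimum on covered length the median of the Hox genes was 0. These homeobox genes set limb and axial position.

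Transport, motor and matrix classes lay near the median of all genes. Of 194 solute carriers 21 were lower and 10 higher (median -0.20). Slc8a3, a sodium-calcium exchanger, had 46545 and 22791 bp (-0.999), and its RNA fell as well (log2 fold change -2.45 ± 0.36, limma, adjusted p = 0.00508). Slc2a13, a myo-inositol transporter, had 82847 and 56296 bp (-0.55), and Slc39a12, a zinc transporter, 3586 and 8804 bp (1.10). Among 41 kinesins and myosins (median -0.16), Myo10, the filopodial myosin, had 53135 and 29921 bp (-0.81) and Myo3a 7125 and 14187 bp (0.90). Collagen genes outside the bone-selective list had a median of -0.19 in 27 genes. Col24a1, a fibrillar collagen of bone, had 123650 and 89144 bp (-0.47), and its RNA fell by 3.78 on the log2 scale (SE 0.33, limma, adjusted p = 0.000568). Col5a1 had 10225 and 5152 bp (-0.87) and Col4a1, of basement membranes, 4871 and 6713 bp (0.39). Oxidative phosphorylation (33 genes) had a median of -0.23, with Ndufa8 at 3159 and 1012 bp (-1.05) and Ndufa9 at 586 and 1736 bp (0.79), and integrins (22 genes) one of -0.07. Mitochondrial ribosomal proteins had 0.04 and cytosolic ribosomal proteins -0.31, with Rpl4 at 1933 and 721 bp. Once the median of their CpG decile was subtracted, these became 0.29 and 0.0027, and the cytosolic median was 0 by number of peaks. Of 102 keratin genes 84 held no peak and none passed, 55 of 67 histone genes held none, and 1 defensin gene passed (Defb1, 713 and 1901 bp). Many of these genes are short, with a body of at least 2 kb in 49 keratin and 9 histone genes. Among all 20779 coding genes 5934 held no peak, and among the 5878 with bodies of 2 to 10 kb 3398 held none.

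The tissue label and the cells that share the bone were checked by markers. In the osteoblast and osteocyte list, Runx2, the master factor of the osteoblast, had the longest covered length, with 123728 bp in VitC+ and 93491 bp in VitC+/- (-0.40). The median of 6 genes that passed was -0.39, and 0 of the 6 were at least 1.5-fold lower. That median was -0.14 once the CpG decile's median was subtracted, and 0.05 by number of peaks. Summed RNA of the 13 autosomal genes of this list was 5613 to 10962 RPKM in VitC+ and 709 to 4502 RPKM in VitC+/-. Bone cells were thus present in all 6 RNA libraries. Of these 13 genes, all tested, 6 fell, beside 7.56% of all tested genes. Phex, listed but not autosomal, is outside this count and fell too (log2 fold change -2.56, limma, adjusted p = 0.00186). Bglap, the osteocalcin gene, fell from 3580, 1106 and 1460 RPKM to 11.2, 8.12 and 8.72 RPKM (limma, adjusted p = 0.000683). In the WT femurs it was at 1315, 139 and 479 RPKM, so the VitC+ level is not that of a wild type. Ibsp was the only listed gene with a fold change above 0 (log2 fold change 0.20, limma, adjusted p = 0.829).

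Markers of marrow and stromal cells differed between the RNA groups too, to be read beside 7.56% of all tested genes lower and 5.93% higher. Summed RNA of 20 B lineage genes was 355 to 464 RPKM in VitC+ and 103 to 124 RPKM in VitC+/-, and 17 of 18 tested genes fell. T and NK cell markers had 113 to 148 and 39.3 to 67.7 RPKM, with 3 of 15 lower, and neutrophil markers 30422 to 48424 and 7553 to 25242 RPKM, with 4 of 18 lower. None of these sums overlapped between the groups. Neither did the sum over all autosomal coding genes, at 300199 to 320936 RPKM in VitC+ and 266436 to 283384 RPKM in VitC+/-. That sum includes the markers themselves, so it is no separate measure of how other genes moved. Macrophage and osteoclast markers had 1186 to 1316 and 1703 to 3850 RPKM, without overlap (2 of 16 lower, 5 higher), and adipocyte markers 291 to 506 and 485 to 3556 RPKM, with overlap (2 of 19 higher). Summed lymphoid, neutrophil and phagocyte RNA thus differed in level between the flushed femurs of the groups. How much marrow was left after flushing is unknown, so these sums need not describe the femurs used for 5hmC. Most of the tested T and NK cell, neutrophil and macrophage markers did not pass the RNA test. In 5hmC, T and NK cell genes had the lowest median of the marker lists (-0.66 in 6 genes, from -1.59 to 0.58). It was -0.39 once the median of their CpG decile was subtracted. Lef1 had 15750 and 8731 bp, Tcf7 2005 and 0 bp, and Gata3 789 and 1674 bp. Tcf7 passed the minimum through the VitC+ list alone and Gata3 through the VitC+/- list alone. RNA of Lef1 and Tcf7 had log2 fold changes of 0.10 and -0.44 (limma, adjusted p = 0.842 and 0.430). B lineage genes had a 5hmC median of -0.11 and went both ways, with Blnk, an adaptor of the B cell receptor, at 4675 and 2532 bp (-0.68), Ebf1 at 124045 and 100168 bp (-0.31), Bank1 at 24338 and 31940 bp (0.38) and Cr2 at 866 and 1524 bp (0.44). Macrophage genes had -0.23, with Mitf at 44856 and 30364 bp and Itgb3 at 11166 and 5536 bp, while Adgre1, the F4/80 antigen, had 2940 and 7012 bp (1.02). Adipocyte genes had 0.17, with Cd36 at 7647 and 11976 bp and the longest covered gene, Acaca, at 32050 and 28406 bp (-0.17). Neutrophil genes had 0.56 in 3 genes, with Itgam at 1945 and 4573 bp (0.92) and Mmp8 at 3613 and 2625 bp (-0.35). The neutrophil median changed sign, to -0.89, with a -log10 q of at least 10. Erythroid, endothelial, chondrocyte, megakaryocyte and marrow stroma lists had medians of -0.10, 0.09, -0.15, -0.28 and 0.12. Hepatocyte genes, which have no place in bone, had -0.26 in 7 genes, and the interferon response -0.20, with 14 of 19 tested genes lower in RNA. The part of a changed cell makeup in the 5hmC differences was not tested.

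Whether genes that changed in RNA differed in 5hmC was asked over the 5855 genes with both values. RNA was lower in VitC+/- for 951 of 12573 tested genes (7.56%) and higher for 746 (5.93%), by limma. Leaving out 1 library at a time gave 317 to 779 and 168 to 580 genes. The 388 genes lower in RNA that passed the 5hmC minimum had a median 5hmC log2 ratio of -0.24, the 364 genes higher in RNA one of -0.26, and all 5855 one of -0.23. The direction of the RNA change was therefore not visible in the median. Across the 5855 genes, which are not independent replicates, r was -0.0042 and rho -0.020. Of the genes lower in RNA, 54 were at least 1.5-fold lower in 5hmC, which is 13.9% beside 10.9% of all 5855. These 54 made up 8.45% of the 639 genes that much lower in 5hmC, where genes lower in RNA were 6.63% of all 5855. They include Slc8a3, the hepatic lipase gene Lipc and Tnfsf13b, the B cell survival factor BAFF. Of the genes higher in RNA, 44 (12.1%) were that much lower in 5hmC, among them Tnfsf11, the osteoclast factor RANKL, and Lrp1. Of the genes higher in RNA, 3 were at least 1.5-fold higher in 5hmC (Pla2g4c, Tex10 and Alkbh8, named here because the count is small), which is 0.824% beside 2.08% of all 5855. Of the genes lower in RNA, 9 (2.32%) were that much higher in 5hmC. Among the genes with the lowest 5hmC ratios, neither Car12, with an RNA log2 fold change of -1.26 (limma, adjusted p = 0.215), nor Vdr, with 0.28 (adjusted p = 0.325), passed the RNA test.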

How the data were processed

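5hmC was measured by hMeDIP-seq in femurs of 3 VitC+ and 3 VitC+/- mice, and RNA by RNA-seq in femurs of 3 WT, 3 VitC+ and 3 VitC+/- mice. The submitters' processing notes list Trim Galore 0.4.3.1, BWA 0.7.15.1 and MACS2 2.1.1.20160309.6. The methods of the study describe mapping to mm10 with BWA and peak calling on the pooled reads of a group at an FDR of 0.05, and name an earlier MACS2 version. The fold enrichment deposited by the authors is a ratio over the local background of the pooled reads, and the -log10 q-value of each peak is deposited beside it. Deposited -log10 p-values and pileups were not used. Use of an input or IgG control in peak calling is not given in the sources used here. The authors deposited RNA as RPKM after mapping with STAR 2.6.0b-1 to mm10.

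Covered length is the number of bases inside at least 1 peak, computed with python 3.11.15 and numpy 2.4.6 over 19 autosomes of the mm10 reference and its gene annotation. Peaks were assigned to compartments by base, and gene bodies of at least 2000 bp with a mean covered length of at least 1000 bp were compared after adding 1000 bp. Each 5hmC list has no replicate, so called means at least 1.5-fold. RPKM were scaled by median of ratios, log2-transformed with a pseudocount of 0.5 and tested with limma 3.58.1 (R 4.3.3, trend, two-sided, Benjamini-Hochberg, 0.05) in genes with at least 1 RPKM in 3 libraries; fold changes are on this log2 scale and understate low genes. RPKM steps depend on gene length and depth was not recovered. That mice were separate animals is stated by the study.

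Genes were named by rule: the 10 lowest and 10 highest ratios among coding genes with at least 5000 bp covered in the higher list, and in each of 33 lists the members with the longest VitC+ length and the lowest and highest ratio. Genes in overlaps with RNA changes were named after their values were seen. The members, gene lists and tests were chosen with earlier results of these data known. Interval counting and limma were tested on simulated data. Bone-selective genes were left out of the named genes and classes, but remain in the osteoblast marker check and among all coding genes (31 of 9025). The authors' histone lists and Ctrl or Tet1/2 cKO RNA were not used here, and no sequence of chromosome 18 is shown. The X chromosome was not analysed here. Some items, among them 1 peak sequence and 1 gene class, are not reported here.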

Additional observations from a re-analysis of the deposited data

How the results depend on the processing

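Gene bodies kept a log2 ratio below 0 and distal intergenic space one above 0 under all alternatives tried, while the size moved. With a -log10 q of at least 5 and of at least 10, the same number of peaks in both lists, counting peaks, and fold times length, gene bodies had -0.18, -0.21, -0.26, -0.051 and -0.23 (-0.19 as reported), distal space 0.31, 0.36, 0.18, 0.31 and 0.32 (0.27), and the whole genome 0.015, 0.0039, -0.080, 0.105 and -0.019. The next 2 alternatives and the subtraction of the CpG median were chosen after seeing the data. Peaks with at least 1 CpG gave -0.23, 0.18 and -0.074 for these 3 regions, and peaks without a short tandem repeat gave -0.23, 0.22 and -0.055. The causes of these shifts were not tested.

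The shared part of VitC+ peaks was 77.5% and 74.6% under the 2 limits on q, 75.1% with equal numbers of peaks, 73.9% when at least 50% of a peak had to be covered, 75.8% for peaks with a CpG and 72.6% without tandem repeats. For VitC+/- peaks it was 71.4%, 67.9%, 76.3%, 71.5%, 76.1% and 71.2%, so the list with the larger shared part depended on the setting. Genes at least 1.5-fold lower numbered 838 as reported, 1549 by fold times length, 1401 with 200 bp added and 1287 over the 30 kb around the start site. Genes at least 1.5-fold higher numbered 516, and 928 by number of peaks, 916 by fold times length, 775 without the coverage minimum and 1662 around the start site, where they outnumbered the lower ones. The 20 genes named for extreme ratios kept their sign in 200 of 200 values over 10 settings. They were picked for these ratios in the same 2 lists, and all settings reuse the same peaks. A change of sign was therefore unlikely from the outset, and the count is no separate support. Of the classes, 11 were below 0 by number of peaks and 12 after subtraction of the CpG decile's median. Bins of 1 Mb at least 1.5-fold lower numbered 2 to 51 and those higher 452 to 625, with rho against CpG density from -0.77 to -0.83.

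Without scaling of RPKM, 403 genes were lower and 473 higher in RNA, and the genes lower in RNA had a median 5hmC ratio of -0.33. Leaving out 1 library gave 317 to 779 lower genes and 168 to 580 higher ones. The lower count was 426, 331 and 338 without VitC+ replicates 1, 2 and 3 and 317 without VitC+/- replicate 1, and the higher count 277, 168, 238 and 170. The median 5hmC ratio then lay between -0.32 and -0.23 for genes lower in RNA and between -0.28 and -0.24 for genes higher in RNA. Replicate numbers were used as a block in 1 alternative, which gave 1211 lower and 964 higher genes and medians of -0.24 and -0.26. The numbers do not pair the RNA libraries, since deviations of same-numbered libraries correlated by -0.067, 0.057 and 0.369. No paired analysis of 5hmC was possible because each group has 1 pooled list. The ratio of the X chromosome could not be computed, as the lists hold autosomes only. With 1 list per group, no 5hmC difference can be set against the spread between mice, and covered length depends on the depth of each pool, which is unknown.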

Other observations

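Further genes of the marker lists had values not given above. Of the megakaryocyte genes, Thbs1, the platelet adhesion protein thrombospondin 1, had 4382 bp covered in VitC+ and 1940 bp in VitC+/- (-0.87), and Fli1, an ETS factor of this lineage, 38672 and 30118 bp (-0.35). Summed megakaryocyte RNA was 319 to 833 RPKM in VitC+ and 196 to 273 RPKM in VitC+/-, with 5 of 16 tested genes lower (limma). Of the erythroid genes, Rhag had 1788 and 1149 bp (-0.38). Erythroid RNA was 257 to 311 and 343 to 496 RPKM, with 3 of 13 tested genes higher. In the cartilage factors Sox6 and Sox5, 104344 and 85939 bp (-0.28) and 81345 and 78143 bp (-0.06) were covered. The muscle genes Neb and Ttn had 16318 and 18201 bp (0.15) and 4889 and 3515 bp (-0.38), while summed muscle RNA ran from 50.3 to 1613 RPKM in VitC+ and from 12.9 to 737 RPKM in VitC+/-, and the groups overlapped.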
